A study of Mus musculus with 10 samples.

Results

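Mouse embryonic stem (ES) cells with an extra copy of chromosome 6 were set against mouse ES cells with an extra copy of chromosome 8. Of the 10 arrays of the series, 4 belong to this comparison, 2 of the line Ts6 and 2 of the line Ts8, chosen by their sample titles. Ts6 cells carried 3 copies of chromosome 6 and were taken at passages 9 and 18, and Ts8 cells carried 3 copies of chromosome 8 and were taken at passages 10 and 13. The labels give 129 S7/SvEvBrd as the strain of both lines, and name neither their sex nor a parent line. WT cells, a diploid male line called AB1 at passages 18 and 20, served as a common point of reference. The remaining 4 arrays (lines trisomic for chromosome 11 or 15) entered the estimate of the spread. They also had a part in which probes were kept, which probe stood for each gene, and the classes of brightness. All cells grew on irradiated fibroblast feeder cells, which were depleted by letting them settle before RNA was taken. Each trisomy is represented by 1 line, so a feature of the line and a feature of its extra chromosome cannot be told apart.

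ES cells are cultured cells of the early embryo that can give rise to every tissue of the body. An extra chromosome adds a gene copy along its whole length, and the RNA of a gene on it rises in proportion where no control acts against the added copy. Chromosome 6 of the mouse carries Nanog and Dppa3, both genes of the early embryo, and the Hoxa cluster, while chromosome 8 carries Zfp42 (also called Rex1), a common marker of ES cells. Cultures of mouse ES cells also hold rare cells that transiently switch on genes of the embryo's 2-cell stage, such as the Zscan4 family and the transcription factor gene Dux.

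RNA was hybridised to 1-colour Agilent arrays whose probes cover coding genes and intergenic long noncoding RNAs (lincRNAs). Values are log2 processed signals from which the array's own 75th percentile was subtracted, so a value of 0 is that percentile itself. The share of spots well above background was 71.6% and 71.5% on the Ts6 arrays, 80.2% and 74.9% on the Ts8 arrays, and 77.9% and 78.5% on the WT arrays. Replicate arrays had a correlation across the 28193 tested genes of 0.996 in Ts6 and 0.992 in Ts8. Each group filled its own column of 1 slide, and an effect of that position cannot be told apart from the group. Replicates were cultures of 1 line at different passages, and p-values measure the spread between such cultures.

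Both lines carried the defining RNAs of ES cells. Pou5f1, the transcription factor gene at the centre of pluripotency, had log2 values of 4.71 and 4.66 in Ts6, 4.54 and 4.52 in Ts8, and 4.74 and 4.78 in WT. Nanog, although it lies on chromosome 6, had 4.87 and 4.84 in Ts6, 4.91 and 4.81 in Ts8, and 5.15 and 5.12 in WT, so the Ts6 and Ts8 arrays overlapped. Sox2, the partner of Pou5f1, had 3.03 and 2.89 in Ts6, against 2.98 and 2.80 in Ts8. Of the 10 core pluripotency genes examined, none passed the test in either direction, and their median log2 difference, Ts6 minus Ts8, was 0.07. Of 33 markers of feeder fibroblasts, only Fbn1, a matrix fibre gene, was called, with a log2 difference of -0.82 ± 0.20 (SE, adjusted p = 0.034), which turned on Ts6 replicate 1 and on either Ts8 replicate, since the call was lost without any of these. The summed level of those markers, in multiples of the array's 75th percentile signal, was 73.9 and 89.6 in Ts6, 91.9 and 79.9 in Ts8, and 99.0 and 97.9 in WT. Of the 9 most defining feeder markers, 8 were tested, 7 of them were well above background on all 4 arrays, and their differences lay between -0.56 and -0.01 with no call.

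Genes were called at an adjusted p under 0.05 in limma, fitted to all 10 arrays with Benjamini-Hochberg adjustment over all tested genes. Of 28193 genes, 3866 were called, a share of 13.7%, with 1771 (6.28%) higher and 2095 (7.43%) lower in Ts6. Away from chromosomes 6 and 8, 1449 of 25239 genes were higher in Ts6 (5.74%) and 1744 were lower (6.91%). Of these, 546 were at least 2-fold higher and 768 at least 2-fold lower. In neither line were 47 of them well above background on both arrays. The balance between directions depended on the scaling. Of the called genes outside both chromosomes, 45.4% were higher in Ts6, against 55.4% when arrays were centred on the median of 15 autosomes. The count itself rested on the replicates, being 855 without Ts6 replicate 1, 1504 without Ts6 replicate 2, 3406 without Ts8 replicate 1 and 1057 without Ts8 replicate 2. Of the 120 called genes that the naming rule picked, 52 kept their call under every alternative that measured them, and those are described as called throughout.

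Genes on chromosome 6 ran higher in Ts6, and genes on chromosome 8 ran lower along their length, apart from 1 window of chromosome 6. On chromosome 6, 302 of 1456 tested genes were higher in Ts6 and 60 were lower. On chromosome 8, 20 of 1498 were higher and 291 were lower. Both sets stand against shares of 6.28% higher and 7.43% lower over all genes. The counts shrank when a library was left out, to 76 calls on chromosome 6 and 72 on chromosome 8 without Ts6 replicate 1, to 163 and 116 without Ts6 replicate 2, and to 108 and 89 without Ts8 replicate 2.

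The shift of a chromosome was taken per array as the mean deviation of its genes from their mean over the 4 arrays, relative to the 15 autosomes that are trisomic in no line of the series. For chromosome 6 it was 0.12 and 0.11 on the Ts6 arrays, against -0.11 and -0.11 on the Ts8 arrays. The difference of 0.23 on the log2 scale corresponds to 1.17-fold, which is 38.5% of the log2 step of 0.585 that a gene dose of 3 against 2 copies would give. For chromosome 8 it was -0.13 and -0.13 on the Ts6 arrays, against 0.12 and 0.13 on the Ts8 arrays. This difference of -0.25 corresponds to 0.838-fold and to 43.5% of the same step. In both cases replicates lay close together and the lines did not overlap, but 2 arrays against 2 allow 6 splits only, and the exact two-sided permutation p was 0.33 for either chromosome, the smallest this design can give. The other 17 autosomes shifted between -0.11 (chromosome 12) and 0.06 (chromosome 9), and chromosome X by 0.06.

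**Figure D1:**
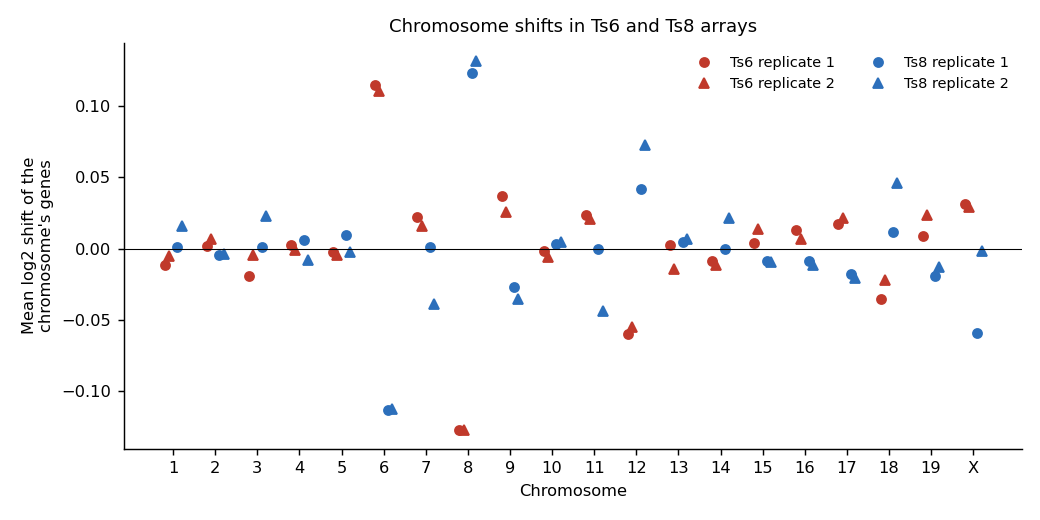
Mean log2 shift of each chromosome's genes (vertical axis) on each of the 2 Ts6 and 2 Ts8 arrays, by chromosome (horizontal axis), set against 15 autosomes that no line carries in excess. On chromosome 6 the Ts6 arrays lie at 0.12 and 0.11 and the Ts8 arrays at -0.11, and on chromosome 8 the order is turned.

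Measured against WT, each line moved on its own extra chromosome. The shift of chromosome 6 was 0.20 and 0.20 in Ts6, -0.03 and -0.03 in Ts8, and -0.0058 and 0.0058 on the WT arrays themselves. The shift of chromosome 8 was 0.0011 and 0.0009 in Ts6, 0.25 and 0.26 in Ts8, and -0.0039 and 0.0039 in WT. On each chromosome the line with the extra copy lay farthest from WT.

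The difference was spread along both chromosomes rather than confined to a segment. In windows of 10 Mb with at least 20 tested genes, 14 of 15 windows of chromosome 6 were higher in Ts6, with shifts from -0.10 to 0.38. All 13 windows of chromosome 8 were lower, from -0.30 to -0.19. Among the other autosomes 82 of 197 windows were higher and 115 were lower. The single chromosome 6 window that was not higher lies between 60 and 70 Mb and holds 67 tested genes, 8 of them called. By signal, the difference on chromosome 6 was 0.19 for dim genes, 0.30 for genes of middle brightness and 0.21 for bright genes, and on chromosome 8 it was -0.22, -0.34 and -0.22 for the same classes. LincRNAs shifted in the same direction as the other genes, by 0.16 for 239 lincRNAs against 0.24 for 1217 other genes on chromosome 6, and by -0.27 for 271 against -0.25 for 1227 on chromosome 8.

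**Figure D2:**
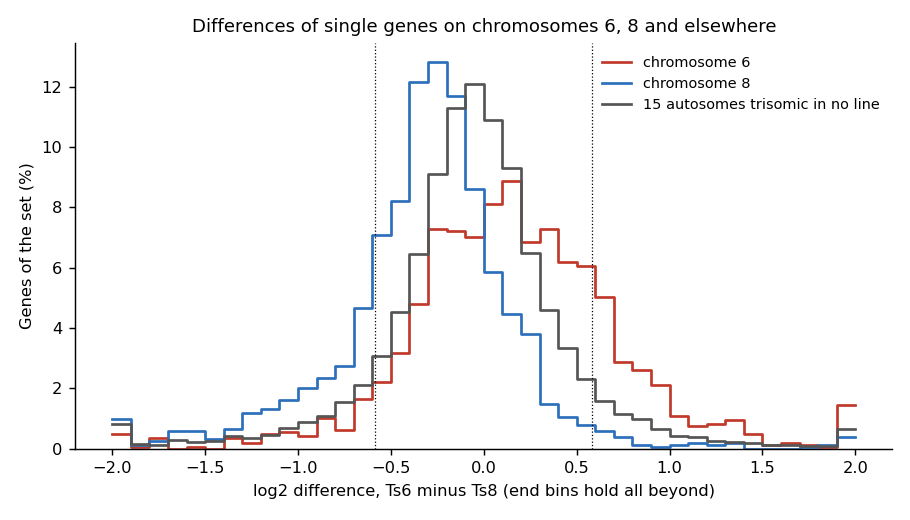
Share of genes (vertical axis, percent of each set) by their log2 difference, Ts6 minus Ts8 (horizontal axis, bins of 0.1), for chromosome 6, chromosome 8 and the 15 autosomes trisomic in no line. Dotted lines mark 0.585 either side of 0, the log2 of 3 over 2 copies, and 19.8% of chromosome 6 genes lie beyond it on the right and 20.2% of chromosome 8 genes on the left. For the 15 autosomes these shares are 7.27% on the right and 9.95% on the left.

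Single genes followed the chromosome unevenly. On chromosome 6, 62.1% of genes had a difference above 0, and 19.8% exceeded the full step for 3 copies against 2, while 6.52% lay as far below 0. On chromosome 8, 19.96% of genes had a difference above 0, 20.2% were beyond the full step on the lower side and 2.54% on the higher side. Over all genes 43.8% were above 0, and the median difference was -0.05. Beyond the full step lay 7.96% of all genes on the higher side and 10.35% on the lower side.

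The genes of chromosome 6 that differed most went far beyond a gene dose. Asz1, which encodes a germ cell protein of the piRNA pathway, had log2 values of -1.66 and -1.98 in Ts6, against -4.74 and -4.55 in Ts8 and -4.37 and -3.96 in WT. It was 7.10-fold higher in Ts6 (log2 difference 2.83 ± 0.19, adjusted p = 0.00021, called throughout), with both Ts6 arrays far above all Ts8 and WT arrays. Its probe aligns within chr6:18005508-18021991 on the mm9 build. Tead4, a transcription factor gene needed for the trophectoderm, had 0.08 and -0.10 in Ts6, against -1.87 and -2.53 in Ts8 and -1.40 and -1.21 in WT. It was 4.56-fold higher in Ts6 (adjusted p = 0.00098, called throughout), with Ts6 above WT and Ts8 below it. Fxyd4, a regulator of the sodium pump, had -1.78 and -2.28 in Ts6, against -4.41 and -4.93 in Ts8 (adjusted p = 0.00043, called throughout).

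Dppa3, a maternal factor that guards DNA methylation in the early embryo, had 0.58 and 0.07 in Ts6, against -1.36 and -1.98 in Ts8 and -2.68 and -2.76 in WT. It was 3.99-fold higher in Ts6 (log2 difference 2.00 ± 0.35, adjusted p = 0.012), and both lines lay above both WT arrays. The call was lost without Ts6 replicate 1 or without Ts8 replicate 2. The homeobox gene Tlx2 (2.13 ± 0.33, adjusted p = 0.0073) and the protease inhibitor gene A2m (2.12 ± 0.38, adjusted p = 0.012) completed the 6 highest. For Tlx2 the Ts6 values of -1.06 and -0.39 lay near the WT values of -1.12 and -0.31, and the Ts8 values of -2.64 and -3.07 lay below both.

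Against the run of the chromosome, Oxtr, the oxytocin receptor gene, was lower in Ts6. Its values were -2.84 and -2.69 in Ts6, against -0.07 and -0.61 in Ts8 and -0.83 and -0.88 in WT, a 5.38-fold reduction (log2 difference -2.43 ± 0.19, adjusted p = 0.00032, called throughout). Cadps2, involved in vesicle release, differed by -1.19 ± 0.19 (adjusted p = 0.0084), and the receptor kinase gene Ret by -1.02 ± 0.16 (adjusted p = 0.0083). Of the 12 Hoxa genes, which pattern the body axis and lie side by side on chromosome 6, none was higher and 2 were lower, Hoxa7 by 0.89 (adjusted p = 0.03) and Hoxa9 by 0.67 (adjusted p = 0.028), and the median of the cluster was -0.07, where all of chromosome 6 had a median of 0.15, and it ranged from -0.25 to 0.11 over the alternatives. The Hoxa7 call was lost without Ts6 replicate 1 or Ts8 replicate 2, and the Hoxa9 call without those arrays or Ts8 replicate 1. In the stretch around Nanog and Dppa3, 4 of 13 tested genes were higher and none lower, with a median of 0.33. Besides Dppa3 and A2m these were Mfap5, a microfibril gene (1.27 ± 0.20, adjusted p = 0.0077), and Apobec1, a cytidine deaminase gene (0.67 ± 0.10, adjusted p = 0.0061).

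On chromosome 8 the lowest gene in Ts6 was Trim67, which encodes a ubiquitin ligase of the brain. It had -4.06 and -4.46 in Ts6, against -1.86 and -1.08 in Ts8 and -2.39 and -3.21 in WT, and was 6.91-fold lower (log2 difference -2.79 ± 0.37, adjusted p = 0.0037, called throughout). The groups did not overlap, and WT lay between the lines. Nlrc5, the activator of MHC class I genes, had -3.17 and -2.70 in Ts6, against -1.32 and -0.52 in Ts8 and -2.47 and -2.78 in WT (4.04-fold lower, adjusted p = 0.0039, called throughout), so that Ts8 alone stood apart from WT. Tox3, a chromatin protein gene, showed the other arrangement, with -4.29 and -4.28 in Ts6, against -2.62 and -2.48 in Ts8 and -2.59 and -2.61 in WT (3.33-fold lower, adjusted p = 0.0003, called throughout). Pdgfrl, a gene related to a growth factor receptor, had -0.22 and -0.15 in Ts6, against 1.45 and 1.42 in Ts8 and 0.48 and 0.32 in WT (adjusted p = 0.00032, called throughout). The muscle gene Pdlim3 (-1.76 ± 0.16, adjusted p = 0.00069) and the phosphatase gene Dusp26 (-1.62 ± 0.23, adjusted p = 0.005) completed the 6 lowest.

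A few genes of chromosome 8 were higher in Ts6. Hsh2d, an adaptor gene of blood cells, had -2.48 and -3.33 in Ts6, against -4.43 and -5.49 in Ts8, at an adjusted p of 0.045 that passed only with both Ts6 arrays and Ts8 replicate 2 present. The transketolase-like gene Tktl2 differed by 1.88 ± 0.32 (adjusted p = 0.011) and the metallothionein gene Mt4 by 1.35 ± 0.25 (adjusted p = 0.015), and both calls were lost without Ts6 replicate 1 or Ts8 replicate 2. Zfp42, on chromosome 8, had 3.98 and 3.96 in Ts6, against 4.21 and 4.08 in Ts8 and 4.02 and 4.04 in WT, and was not called (adjusted p = 0.28).

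Away from both chromosomes, the highest genes in Ts6 were low in Ts8. Nms, a neuropeptide gene on chromosome 1, had -2.43 and -2.42 in Ts6, against -5.60 and -5.45 in Ts8 and -5.99 and -6.33 in WT (8.55-fold higher, log2 difference 3.097 ± 0.17, adjusted p = 0.00014, called throughout). Tex13b, a testis gene on chromosome X, had 1.60 and 1.66 in Ts6, against -1.18 and -0.87 in Ts8 and -1.18 and -1.03 in WT (6.28-fold higher, adjusted p = 0.00028, called throughout). For both genes Ts6 stood above Ts8 and WT alike. Dnajb13, a gene of sperm flagella, had -0.15 and -0.57 in Ts6, against -2.97 and -3.32 in Ts8 and -2.03 and -1.86 in WT, so that WT lay between (log2 difference 2.79 ± 0.23, adjusted p = 0.00045, called throughout). Cox7b2, a testis form of a cytochrome oxidase subunit, had -3.25 and -3.37 in Ts6, against -6.04 and -5.90 in Ts8 and -4.90 and -4.87 in WT (adjusted p = 0.00014, called throughout). The remaining 4 of the 8 highest were Ccdc183 (2.73), the kallikrein gene Klk14 (2.72), Ldc1 (2.67) and Ccdc74a (2.61).

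Where a line had no array well above background for a gene, an approximate bound is given in place of a fold. On each array of that line it used the dimmest signal that passed detection anywhere on the array. Where the gene's own signal was brighter, that was used instead. Detection at a gene's own spot can need more signal, so "at least" holds only against this array-wide level. Tex18, for example, had -6.80 on Ts8 replicate 1, above the level of -6.84, and still did not pass. Ros1, a receptor kinase gene, was at least 8.92-fold higher in Ts6 (adjusted p = 0.00048), with -3.95 and -2.82 in Ts6, against -8.17 and -8.27 in Ts8. Tex18, a testis gene, was at least 6.62-fold higher and Abca16, a transporter gene, at least 6.51-fold higher (adjusted p = 0.0083 and 0.00011). Retnla, a macrophage gene, was at least 6.49-fold higher (adjusted p = 0.025), a call that was lost without any 1 of the 4 arrays. Abca16 and Retnla read nearly the same in Ts6, at -3.89 and -3.78 for Abca16 and -3.90 and -3.79 for Retnla. Whether these values share 1 source of signal was not tested, so they may not be separate changes. The spots of Ros1, Tex18, Abca16 and Retnla lie on the right side of the array, as do those of Clec9a, Defb2 and Tpbpa, named below. Of the 187 called genes that were higher in Ts6 and not above background on both Ts8 arrays, 81.3% had their spot on that side, against 72.4% of all 355 tested genes with that pattern of detection and 49.9% of all tested genes. In the other direction, 55.2% of 335 such called genes lay on the right side, against 49.6% of 1567. The part of position on the array in these calls was not tested beyond this, and the direction of both chromosome shifts was the same when either side was used alone.

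For the lowest genes in Ts6 away from both chromosomes, both Ts6 arrays lay below all Ts8 and WT arrays. Ts6 was not always the line farther from WT. Mean distances from WT were -1.40 in Ts6 and 1.66 in Ts8 for Cpb2, and -1.03 and 1.85 for Spz1. Apcs, a plasma protein gene of the pentraxin family, had -4.47 and -3.95 in Ts6, against -0.81 and -1.33 in Ts8 and -1.36 and -1.62 in WT (8.79-fold lower, log2 difference -3.14 ± 0.22, adjusted p = 0.00025, called throughout). Cpb2, a carboxypeptidase of blood plasma, had -4.04 and -3.54 in Ts6, against -0.98 and -0.48 in Ts8 and -2.44 and -2.34 in WT (8.35-fold lower, adjusted p = 0.00077, called throughout). Pdx1, the transcription factor gene of the pancreas, had -4.55 and -4.43 in Ts6, against -1.43 and -2.13 in Ts8 and -2.50 and -2.21 in WT (6.55-fold lower, adjusted p = 0.00038, called throughout). In each case both Ts6 arrays lay below WT and both Ts8 arrays above it. The transcript D1Ertd704e differed by -2.94 ± 0.24 (adjusted p = 0.00039). Among genes not well above background on any Ts6 array, Spz1, a sperm transcription factor gene, was at least 6.62-fold lower in Ts6 (adjusted p = 0.0007). Olfr376, an olfactory receptor gene, was at least 5.58-fold lower (adjusted p = 0.00014) and the testis gene Speer4cos at least 5.53-fold lower (adjusted p = 0.00014). Oog2, an egg gene, was at least 5.72-fold lower (adjusted p = 0.0011), but another of its probes showed no difference. On the trisomic chromosomes the same kind of bound was at least 2.89-fold higher for Clec9a and at least 2.53-fold lower for Fam190a on chromosome 6, and at least 2.67-fold higher for Defb2 and at least 4.45-fold lower for Vat1l on chromosome 8.

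The other 4 of the 8 lowest, Pramel16, Pramel31, Pramel17 and Pramel20, belong to 1 family of genes of the egg and early embryo that lie in clusters. Pramel20 had -1.40 and -1.28 in Ts6, against 1.35 and 1.15 in Ts8 and 0.58 and 0.60 in WT (6.02-fold lower, adjusted p = 0.0002, called throughout). Because of this the whole family was counted, after its values had been seen. Of 26 tested Pramel and Oog genes, 1 was higher and 13 were lower in Ts6, with differences from -2.97 to 1.05. Of the 18 on chromosome 4, none was higher and 10 were lower, with a median of -1.60, and of the 4 on chromosome 5, 3 were lower. Probes of such near-identical copies can share signal, so their number of independent changes is uncertain. The member that was higher was Pramel7 on chromosome 2, a gene of naive ES cells, and its call (adjusted p = 0.037) was lost without any 1 of the 4 arrays.

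Most genes of the 2-cell-like state were lower in Ts6. Of 23 tested members of a list of 27, none was higher and 18 were lower, and their median difference was -1.80, where the median of all genes was -0.05. Over all genes 6.28% were higher and 7.43% lower, and every later list count stands beside these shares. Dux, the transcription factor that switches on the 2-cell programme, had -3.59 and -3.60 in Ts6, against -1.57 and -1.49 in Ts8 and -2.31 and -2.93 in WT. It was 4.20-fold lower (log2 difference -2.07 ± 0.19, adjusted p = 0.00067). The 4 measured Zscan4 genes, which act in telomere maintenance in these cells, were 5.10-fold (Zscan4a), 4.56-fold (Zscan4c), 4.06-fold (Zscan4e) and 3.60-fold (Zscan4f) lower.

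Zscan4a had 0.26 and 0.50 in Ts6, against 2.73 and 2.73 in Ts8 and 2.31 and 2.17 in WT, with adjusted p = 0.00036. Tcstv1, another gene of the 2-cell embryo, had -1.94 and -1.64 in Ts6, against 0.91 and 0.60 in Ts8 and -0.25 and 0.18 in WT (log2 difference -2.55 ± 0.26, adjusted p = 0.0012). Pramel37 had -2.25 and -2.13 in Ts6, against 0.37 and 0.24 in Ts8 and -0.60 and -0.25 in WT (-2.49 ± 0.15, adjusted p = 0.00018). The 3 genes were called throughout, with Ts6 lowest, Ts8 highest and WT between. Arg2, a mitochondrial arginase, followed the same order (-2.26 ± 0.20, adjusted p = 0.00064). Tmem92 and the deubiquitinase genes Usp17lc and Usp17ld differed by -2.26, -1.80 and -1.75.

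The 5 members without a call were Tdpoz1, AF067063, Usp17la, Sp110 and Eif1a. Tdpoz1 was not well above background in Ts6 and had -6.69 and -6.70 there, against -5.60 and -5.68 in Ts8. Sp110 had 6.49 and 6.36 in Ts6, against 6.45 and 6.34 in Ts8, and Eif1a had 2.71 and 2.53 in Ts6, against 2.48 and 2.57 in Ts8. Several members of the list belong to multigene families, in which probes can read more than 1 copy. The count of 18 ranged from 15 to 18 when 1 array was left out. In cell cultures, fewer cells in a state and less RNA per cell cannot be told apart in such values.

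**Figure D3:**
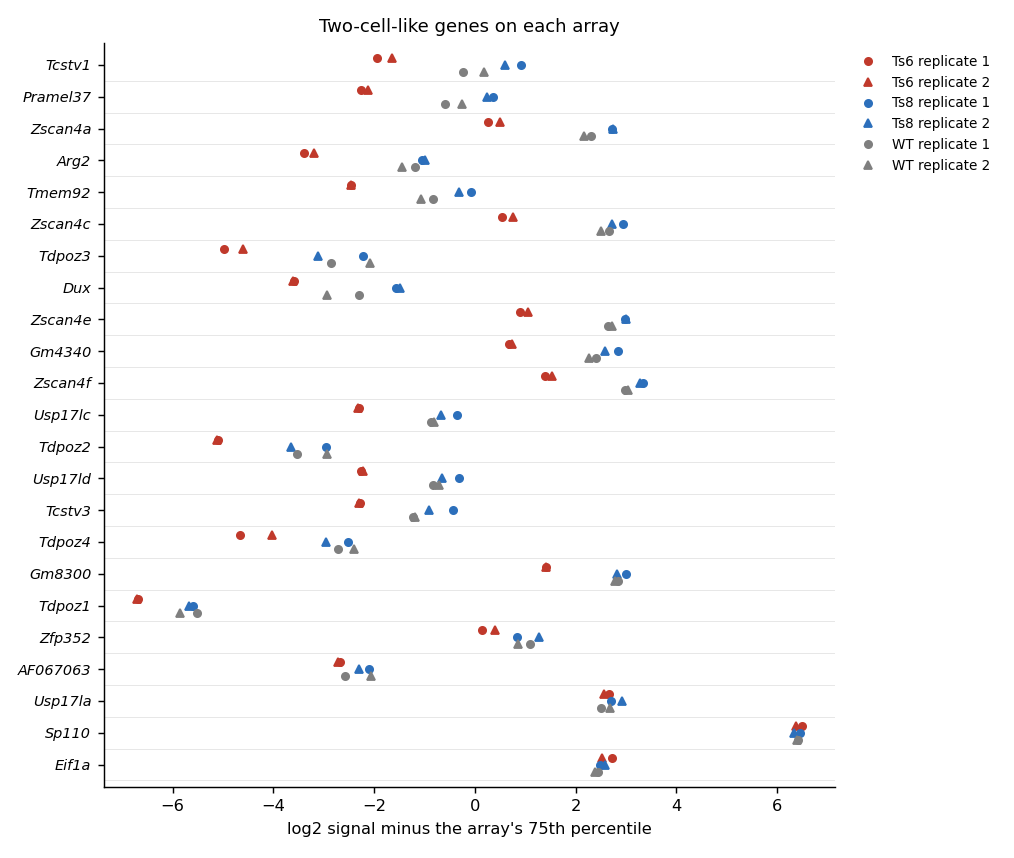
Log2 signal minus the array's 75th percentile (horizontal axis) of the 23 tested genes of the 2-cell-like state (rows, ordered by their difference) on the 2 arrays each of Ts6, Ts8 and WT. For the 18 called genes, Dux and Zscan4a among them, both Ts6 points lie left of both Ts8 points.

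The Dux protein binds a sequence whose core, GATTCAATC, was searched on both strands of promoters after the values had been seen. The sequences come from RefSeq on the GRCm38.p6 build, from 250 bases before to 50 after each gene's start. Of 32851 promoters, 49 held the core, a share of 0.149%. Of the 17 tested genes among them, none was higher and 6 were lower in Ts6, where 7.43% of all genes were lower. These were Pramel17, Pramel20, Pramel31, Gm13043, Gm4340 and D17Ertd648e, and the 11 others were not called. Pramel17, Pramel20 and Pramel31 had already been picked as among the lowest genes, and probes of such copies can share signal. The 6 are therefore not an independent count, and the share was not tested. Of 23 promoters of Pramel genes, 3 held the core. Only 1 of 11 members of the 2-cell-like list with a promoter sequence held the core, namely Gm4340, which had 0.67 and 0.74 in Ts6, against 2.83 and 2.58 in Ts8 and 2.41 and 2.26 in WT. The promoters of 4 of these genes are shown over the 250 bases before the start, 5′ to 3′ along the gene's strand. Capitals mark the match, which in each reads GATTGAATC because it lies on the opposite strand.
Pramel17, chr4:101844023-101844272, minus strand: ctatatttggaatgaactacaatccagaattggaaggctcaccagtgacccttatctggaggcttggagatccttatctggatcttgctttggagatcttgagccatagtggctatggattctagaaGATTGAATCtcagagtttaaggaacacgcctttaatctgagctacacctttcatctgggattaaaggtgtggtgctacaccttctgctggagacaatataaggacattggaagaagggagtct
Pramel20, chr4:143567217-143567466, plus strand: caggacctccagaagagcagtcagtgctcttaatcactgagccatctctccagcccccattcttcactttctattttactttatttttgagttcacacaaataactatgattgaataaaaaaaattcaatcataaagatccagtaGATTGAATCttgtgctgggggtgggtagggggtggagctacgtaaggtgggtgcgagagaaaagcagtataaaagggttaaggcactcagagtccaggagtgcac
Pramel31, chr4:144357714-144357963, plus strand: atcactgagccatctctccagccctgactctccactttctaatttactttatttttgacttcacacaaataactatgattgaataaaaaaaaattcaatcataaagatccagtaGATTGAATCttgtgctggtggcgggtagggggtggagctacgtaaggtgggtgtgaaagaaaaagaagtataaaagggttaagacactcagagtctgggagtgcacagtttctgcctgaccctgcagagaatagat
Gm4340, chr10:104193792-104194041, plus strand: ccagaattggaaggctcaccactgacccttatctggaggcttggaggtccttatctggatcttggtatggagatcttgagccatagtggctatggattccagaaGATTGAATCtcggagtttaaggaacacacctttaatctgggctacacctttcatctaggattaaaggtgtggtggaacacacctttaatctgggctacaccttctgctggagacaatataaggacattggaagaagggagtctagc
The match began 123 bases before the start in Pramel17, 105 in Pramel20, 136 in Pramel31 and 146 in Gm4340. A match describes these letters only and does not show that the factor binds there.

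Genes of naive pluripotency, the state of ES cells closest to the inner cell mass, were higher in Ts6 wherever they were called. Of 26 members, 6 were higher and none was lower, against 6.28% and 7.43% of all genes, with a median difference of 0.23. Besides Dppa3 and Pramel7 these were Tfcp2l1, Tbx3, Mkrn1 and Nr5a2. Tfcp2l1, a transcription factor gene that sustains self-renewal, had 2.48 and 2.36 in Ts6, against 1.68 and 1.64 in Ts8 and 2.36 and 2.25 in WT (log2 difference 0.76 ± 0.11, adjusted p = 0.0065). Tbx3, of like role, had 3.19 and 3.15 in Ts6, against 2.55 and 2.40 in Ts8 and 3.097 and 2.94 in WT (0.69 ± 0.14, adjusted p = 0.02). In both genes the Ts8 arrays lay below WT while Ts6 lay at or above it. The list kept no call without Ts6 replicate 1, 2 without Ts6 replicate 2 and 1 without Ts8 replicate 2.

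Genes of the trophectoderm, the outer layer of the blastocyst that forms the placenta, were also more often higher than lower. Of 20 tested, 6 were higher and none was lower, with a median of 0.42. Tpbpa, a marker of the placental spongiotrophoblast, had -4.51 and -5.54 in Ts6 and was not well above background in Ts8, at -9.12 and -8.44, or in WT, which makes it at least 2.87-fold higher (adjusted p = 0.00084). Hand1, a transcription factor gene of trophoblast and mesoderm, had -2.46 and -3.09 in Ts6, against -4.70 and -5.07 in Ts8 and -4.11 and -3.65 in WT (log2 difference 2.11 ± 0.27, adjusted p = 0.0031, called throughout), although another probe of Hand1 pointed the other way. Ets2, Rhox6 and Tfap2c, all transcription factor genes, differed by 0.72, 0.70 and 0.53, and Tead4 is given above. The count fell to 3 without Ts6 replicate 1 or without Ts8 replicate 2, and to 4 without either of the other arrays.

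Called neural genes were all lower in Ts6. Of 15 tested neuroectoderm genes, none was higher and 4 were lower, with a median of -0.53, which was -0.25 with normexp background correction and -0.30 without Ts6 replicate 1. Nes, the filament gene of neural progenitors, had -2.11 and -2.63 in Ts6, against -1.01 and -0.76 in Ts8 and -1.13 and -1.21 in WT (log2 difference -1.49 ± 0.17, adjusted p = 0.0021). Neurod1, a neuronal transcription factor gene, had -2.49 and -2.33 in Ts6, against -0.97 and -0.75 in Ts8 and -1.21 and -1.57 in WT (-1.56 ± 0.15, adjusted p = 0.00096). Sox11 differed by -1.22 ± 0.17 (adjusted p = 0.0044) and the Notch target gene Hes5 by -0.71 ± 0.16 (adjusted p = 0.027). Nes, Neurod1 and Sox11 were called throughout, and Hes5 was lost without either Ts6 array or Ts8 replicate 2. Sox3, listed with the primed epiblast, had -0.47 and -0.55 in Ts6, against 0.88 and 1.18 in Ts8 and 0.52 and 0.49 in WT (-1.54 ± 0.17, adjusted p = 0.0017, called throughout).

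The other early lineages showed no common direction. Among 19 tested genes of the primed epiblast, 1 was higher (Etv4) and 2 were lower (Sox3 and Pim2). Among 25 of the primitive endoderm, Rhox5 was higher (0.68 ± 0.12, adjusted p = 0.011) and the endocytic receptor gene Lrp2 was lower (-0.99 ± 0.17, adjusted p = 0.012), although Lrp2 had a probe that pointed the other way. Among 19 of mesoderm and primitive streak, 2 were higher, Hand1 among them, and 4 were lower. Tal1, the master gene of blood formation, had -4.19 and -3.85 in Ts6, against -2.64 and -2.08 in Ts8 and -2.09 and -1.93 in WT (-1.66 ± 0.20, adjusted p = 0.0025, called throughout). Isl1 and Mesp1 were not well above background in Ts6, and Mesp2 differed by -0.60 (adjusted p = 0.031).

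**Figure D4:**
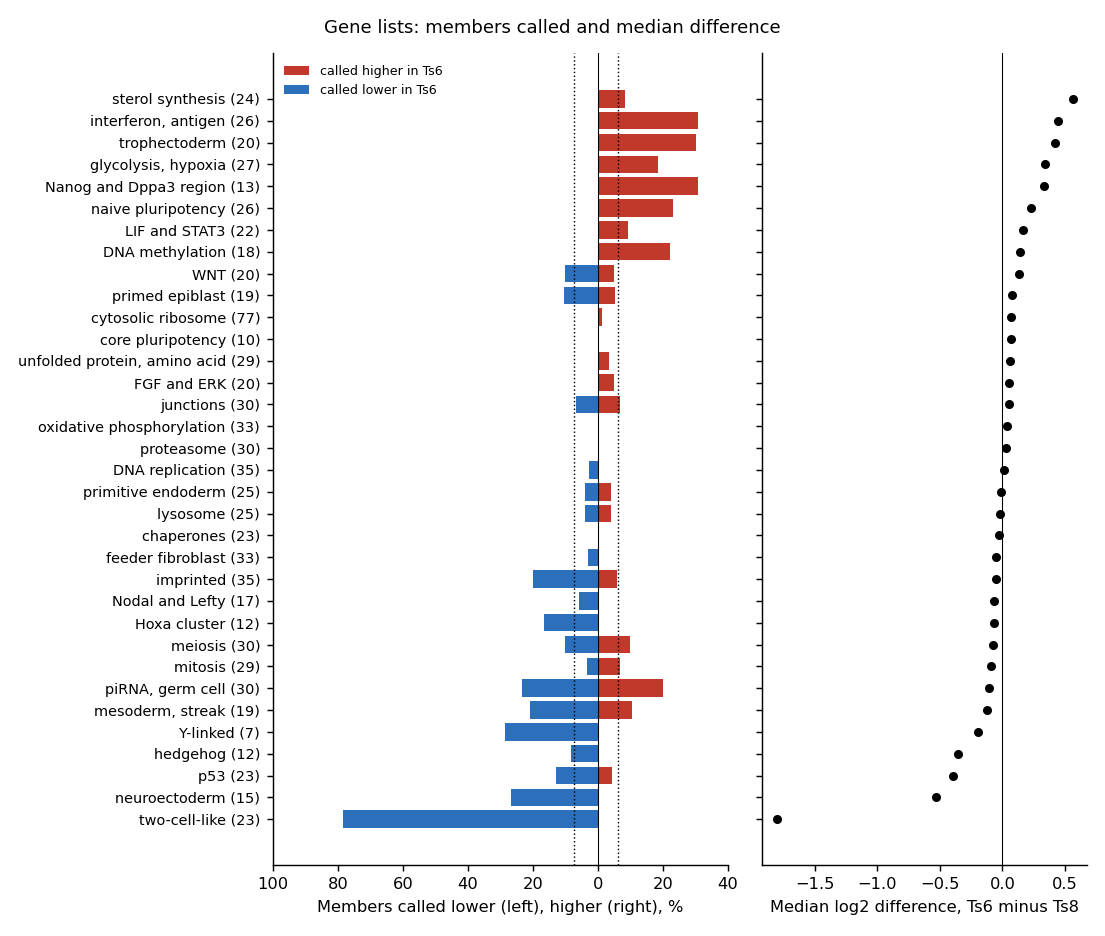
For each of 34 gene lists (rows, with the number of tested members in brackets), the share of members called lower in Ts6 (bars to the left) and higher in Ts6 (bars to the right), and the median log2 difference, Ts6 minus Ts8. Dotted lines mark the shares over all tested genes, 7.43% lower and 6.28% higher, and the 2-cell-like list stands lowest with a median of -1.80.

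Of 26 interferon-response and antigen-presentation genes, 8 were higher in Ts6 and none was lower, with a median of 0.45. They were Irf7, Oas1a, Usp18, Mx1, Oasl2, Ddx58, Psmb9 and Irf9, which sense viral RNA, relay the interferon signal, or act on viral RNA or peptides. Usp18, a brake on interferon signalling that lies on chromosome 6, had 1.10 and 1.03 in Ts6, against 0.05 and -0.01 in Ts8 and 0.19 and 0.26 in WT (log2 difference 1.05 ± 0.11, adjusted p = 0.0012, called throughout). Irf7, the transcription factor that amplifies the response, had -1.70 and -1.55 in Ts6, against -2.68 and -2.87 in Ts8 and -2.81 and -2.21 in WT (1.15 ± 0.19, adjusted p = 0.0095). Oas1a, which makes the activator of an RNA-cutting enzyme, had 2.28 and 2.35 in Ts6, against 1.65 and 0.88 in Ts8 and 2.16 and 2.13 in WT (1.05 ± 0.23, adjusted p = 0.026), so that here the Ts8 arrays were the ones away from WT. Of these genes, 7 lie outside chromosomes 6 and 8. The count fell to 1 without Ts6 replicate 1, where Usp18 alone was left, 2 without Ts6 replicate 2 and 1 without Ts8 replicate 2.

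The core of the element bound by interferon-activated factors, a pair of GAAA stretches with any 2 bases between them, was searched in the same promoters on both strands, and matches may overlap. It was found in 3.44% of promoters, and in 10 of 21 list members with a promoter sequence. Of all 524 tested genes that held it, 40 were higher and 33 were lower in Ts6, against shares of 6.28% and 7.43% over all genes, which is near the background. The promoter of Oas1a, shown over the 250 bases before the start, carries 2 overlapping matches at 20 and 14 bases before the start, in capitals.
Oas1a, chr5:120907526-120907775 of GRCm38.p6, minus strand: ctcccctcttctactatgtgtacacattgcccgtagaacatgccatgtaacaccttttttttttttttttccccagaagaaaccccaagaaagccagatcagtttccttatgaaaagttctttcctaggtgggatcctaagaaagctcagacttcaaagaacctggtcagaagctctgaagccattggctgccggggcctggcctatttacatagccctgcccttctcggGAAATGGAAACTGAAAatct
Its own array probe lies at chr5:121346735-121346794 on mm9.

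Glycolysis and cholesterol genes were higher in Ts6 where they were called. Of 27 genes of glycolysis and the hypoxia response, 5 were higher (Aldoc, Hk2, Pfkp, Eno2 and Aldoa) and none was lower, 25 had a difference above 0, and the median was 0.34. Hk2, the hexokinase gene on chromosome 6, had 3.43 and 3.18 in Ts6, against 2.73 and 2.21 in Ts8 and 3.02 and 2.96 in WT (0.84 ± 0.19, adjusted p = 0.026). Aldoc, an aldolase gene, had 2.49 and 1.81 in Ts6, against 1.15 and 0.52 in Ts8 and 1.03 and 0.78 in WT (1.32 ± 0.28, adjusted p = 0.024). A second probe of Pfkp pointed the other way. No glycolysis call remained without Ts6 replicate 1 or without Ts8 replicate 2, and 1 remained without Ts6 replicate 2.

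All 24 genes of sterol synthesis had a difference above 0, with a median of 0.56, but only 2 passed the test. Tm7sf2, a sterol reductase gene, had 1.63 and 1.21 in Ts6, against 0.71 and 0.25 in Ts8 and 0.22 and 0.31 in WT (0.94 ± 0.19, adjusted p = 0.02). Srebf2, the transcription factor gene that drives the pathway, had 0.40 and 0.02 in Ts6, against -0.64 and -0.72 in Ts8 and -0.17 and 0.28 in WT (0.89 ± 0.20, adjusted p = 0.029). Both calls were lost without Ts6 replicate 1 or Ts8 replicate 2, and that of Srebf2 also without Ts8 replicate 1. The median level of the list was 1.75 and 1.46 in Ts6, 1.37 and 0.57 in Ts8, and 1.25 and 1.77 in WT, so WT overlapped Ts6 and lay above Ts8 replicate 2.

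Imprinted genes, which are read from 1 parental copy, included several strong reductions. Of 35 tested, 2 were higher and 7 were lower, against 6.28% and 7.43% of all genes, with a median of -0.05. Grb10, a growth inhibitor, had -3.60 and -3.47 in Ts6, against -1.31 and -1.10 in Ts8 and -1.37 and -1.34 in WT (5.02-fold lower, adjusted p = 0.00032, called throughout). Cdkn1c, a cell cycle inhibitor gene, had 0.61 and 0.76 in Ts6, against 2.15 and 2.44 in Ts8 and 1.64 and 1.62 in WT (3.06-fold lower, adjusted p = 0.00036, called throughout). Meg3, a long noncoding RNA, had 1.43 and 1.41 in Ts6, against 2.61 and 2.90 in Ts8 and 2.39 and 2.35 in WT (log2 difference -1.33 ± 0.19, adjusted p = 0.0053, called throughout). In Grb10 and Meg3 the distance was mostly between Ts6 and WT. Magel2 (-0.96), Peg3 (-0.87), Phlda2 (-0.71) and Mirg (-0.85), which lies beside Meg3 on chromosome 12, were lower too, while Peg12 (0.95) and Slc22a18 (0.80) were higher. The 7 lower calls became 3 without Ts6 replicate 1 and 4 without Ts8 replicate 2.

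**Figure D5:**
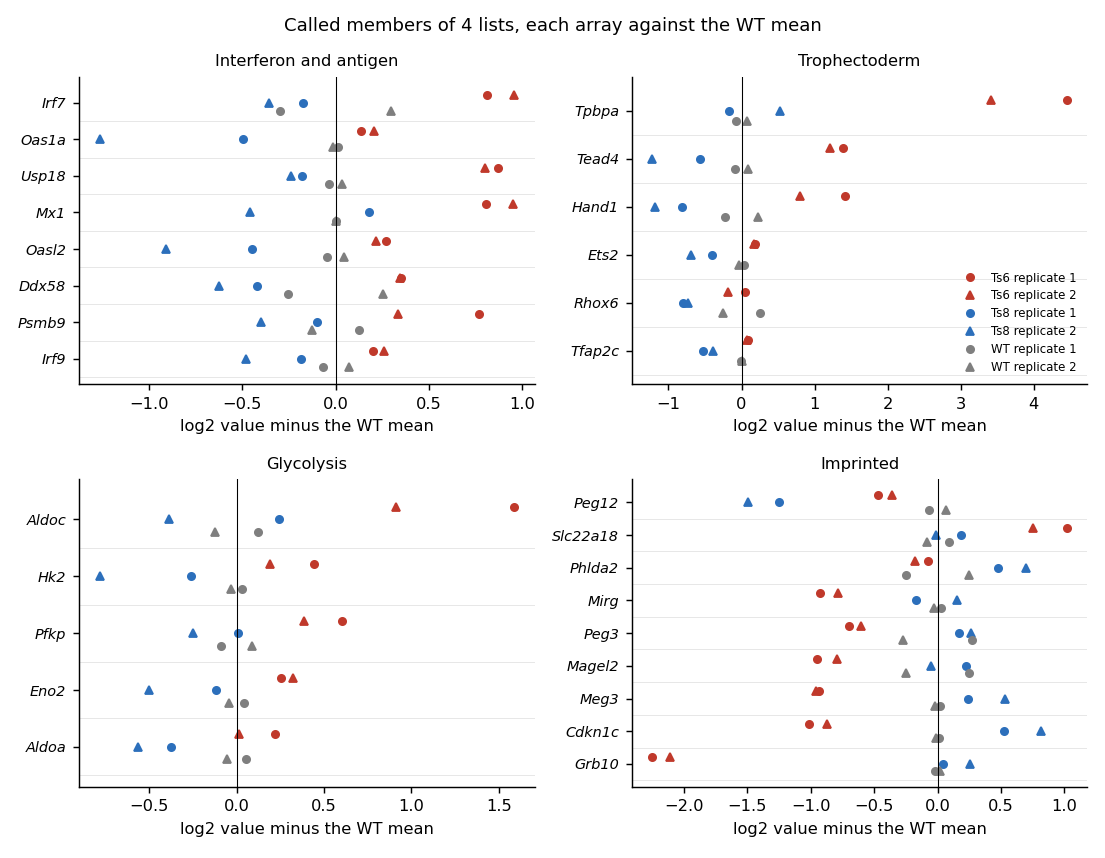
Log2 value minus the mean of the 2 WT arrays (horizontal axis) for the called members (rows) of 4 gene lists, on each Ts6, Ts8 and WT array. Usp18 and Irf7 lie to the right of WT in Ts6 alone, Hk2 and Oas1a lie to the left of WT in Ts8, and Grb10 lies far to the left of WT in Ts6 alone.

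Germ cell genes split. Of 30 tested genes of the piRNA pathway and germ cells, 6 were higher and 7 were lower, against 6.28% and 7.43% of all genes. The higher ones were Asz1, Dppa3, Brdt (1.39 ± 0.23, adjusted p = 0.01), Gtsf1, Sohlh2 and Piwil4, and the lower ones were Tdrkh (-1.21 ± 0.23, adjusted p = 0.015), Tex101, Fkbp6, Tdrd1, Ddx4, Sohlh1 and Mael. Gtsf1, a piRNA factor, had 1.23 and 1.07 in Ts6, against 0.16 and 0.07 in Ts8 and 0.17 and 0.17 in WT. Of 30 meiosis genes, 3 were higher (Terb2, Tex12 and Msh5) and 3 lower, and Terb2, a telomere protein of meiosis, differed by 1.42 ± 0.18 (adjusted p = 0.003, called throughout). Of 18 genes of DNA methylation and demethylation, 4 were higher, namely Apobec1, Mbd4, Tet1 and Gadd45b, and none was lower. Of these, Tet1, which oxidises methylated cytosine, had 2.97 and 2.82 in Ts6, against 2.44 and 2.27 in Ts8 and 2.49 and 2.67 in WT (0.54 ± 0.13, adjusted p = 0.036, lost without either Ts6 array or Ts8 replicate 2).

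Signalling pathways of ES cells held few calls, near the shares over all genes of 6.28% higher and 7.43% lower. Of 22 target and pathway genes of LIF and STAT3, 2 were higher (Tfcp2l1 and the receptor gene Il6st), and of 20 of FGF and ERK, 1 was higher (Etv4, also a primed epiblast gene). Of 20 WNT genes, Cdx1 was higher (1.03 ± 0.21, adjusted p = 0.019), and the feedback inhibitors Axin2 (-1.13 ± 0.14, adjusted p = 0.0033, called throughout) and Nkd1 (-0.97 ± 0.19, adjusted p = 0.017) were lower. Nkd1 lies on chromosome 8 and had a probe that pointed the other way. Of 17 Nodal genes, only Gdf1, on chromosome 8, was lower (-0.75 ± 0.12, adjusted p = 0.0093). Of 12 Hedgehog genes 1 was lower. Hhip, the pathway's inhibitor on chromosome 8, had -5.85 and -4.70 in Ts6, against -3.91 and -2.43 in Ts8, and was not called (adjusted p = 0.063).

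A list of 23 genes held Trp53, the gene of p53 itself, and genes activated by p53. Of these, 1 was higher (Gadd45a, on chromosome 6) and 3 were lower, while 20 had a difference below 0 and the median was -0.39. The lower ones were Perp, of cell junctions (-0.73 ± 0.13, adjusted p = 0.012), Pmaip1, a cell death gene (-0.61 ± 0.12, adjusted p = 0.02), and Zmat3 (-0.57 ± 0.13, adjusted p = 0.031). The Perp call was lost without either Ts6 array, the Pmaip1 call without Ts6 replicate 2 or Ts8 replicate 2, and the Zmat3 call without any 1 of the 4. Of 29 genes of the unfolded protein and amino acid response, only Chac1, a glutathione-degrading enzyme gene, was called, with 1.00 and 0.82 in Ts6, against -0.40 and -0.66 in Ts8 and -0.13 and -0.17 in WT (1.44 ± 0.16, adjusted p = 0.0015, called throughout).

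The machinery of growth held few calls. No member was called among 23 chaperone genes, 30 proteasome genes or 33 genes of oxidative phosphorylation in limma, and their medians were -0.02, 0.03 and 0.04. Of 77 genes of the cytosolic ribosome, 1 was higher (Rpl14, 0.44 ± 0.12, adjusted p = 0.046), and its call was lost without any 1 of the 4 arrays. Of 35 DNA replication genes 1 was lower (Pola1, on chromosome X). Of 29 mitosis genes 2 were higher (Pttg1, and Mad2l1 on chromosome 6) and 1 was lower (Cdk1). Of 25 lysosome genes 1 was higher (Npc1) and 1 was lower (Map1lc3b, on chromosome 8). None of these replication, mitosis and lysosome calls held under every alternative, and that of Cdk1 was lost most often among them.

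Y-linked RNA set the lines apart from WT and from each other. Eif2s3y, a Y-linked translation factor gene expressed in most male cells, was not well above background in Ts6 at -8.18 and -8.14, against -3.08 and -2.99 in Ts8 and 0.84 and 0.70 in WT, and was at least 7.31-fold lower in Ts6 than in Ts8 (adjusted p = 3.8e-05, called throughout). Ddx3y, a Y-linked RNA helicase gene, was likewise not well above background in Ts6 at -8.14 and -8.12, against -5.10 and -4.50 in Ts8 and -0.69 and -0.69 in WT, and was at least 2.15-fold lower (adjusted p = 0.00022, called throughout). Uty was not well above background on any array of either line and had -5.38 and -5.04 in WT. Probes for Sry, Zfy2 and Ube1y1 were above background on all these arrays with no call, at for example -3.55 and -3.40 in Ts6, against -3.62 and -3.62 in Ts8 and -3.57 and -3.14 in WT for Sry. Of 7 tested Y-linked genes, none was higher and 2 were lower.

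On chromosome X, 118 of 1122 genes were higher and 101 were lower. Xist, the noncoding RNA that coats the inactive X chromosome, had 0.21 and 0.20 in Ts6, against 0.64 and 0.96 in Ts8 and -0.81 and 0.04 in WT, and was not called (adjusted p = 0.2). Tsix, transcribed from the opposite strand, had -5.15 and -5.04 in Ts6, against -3.50 and -2.83 in Ts8 and -4.12 and -4.31 in WT (log2 difference -1.93 ± 0.27, adjusted p = 0.0047, called throughout). Of 4132 tested lincRNAs, 167 were higher and 354 were lower, shares of 4.04% and 8.57% that compare with 6.28% and 7.43% over all genes.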

How the data were processed

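Each array was deposited as the authors' Feature Extraction output, and per the file headers (version 10.7.3.1, mm9 probe design) spatial and multiplicative detrending were applied without background subtraction. The deposited unit is the processed signal, a Cy3 intensity on a linear scale. The authors' deposited series table holds processed values of the same arrays on a log2 scale, with a correlation to the scanner log2 values of at least 0.998 on each array, medians from -3.41 to -3.31 and an SD of 3.81. Its exact scaling and centring are unknown, and it served as an alternative only.

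Here log2 intensities were reduced by each array's 75th percentile over 59305 noncontrol spots, spots of 1 probe were averaged, and 176 probes without a value on some array were left out. A probe was kept if it was well above background on both arrays of any group, which 43056 probes were, and the probe with the highest mean stood for its gene. Of 1069 called genes with several probes, 196 had a probe of opposite sign. Of 28390 RefSeq accessions, 26762 matched a current symbol. No spot was saturated, and precision is limited by 2 arrays a line.

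A linear model with 1 mean per group was fitted to all 10 arrays in limma 3.58.1 (R 4.3.3), with 5 residual and 2.67 prior degrees of freedom. The contrast was Ts6 minus Ts8, with Benjamini-Hochberg adjustment over 28193 genes. The fit was tested on simulated data. Tables and plots were made in Python 3.11.15 with pandas 2.3.3, numpy 2.4.6 and matplotlib 3.10.9. Gene lists (34, with 863 of 871 members on the array) and the members were chosen with earlier results of these data known. Named genes were the called genes with a curated symbol, no overlap between the lines and the largest differences, namely 8 each way outside chromosomes 6, 8 and Y, 6 and 3 on chromosomes 6 and 8, the largest bounds, up to 4 called members of each list, and the core pluripotency and sex-chromosome genes. Pramel family members, motif holders and further list members named by count fall outside that rule and were chosen after their values were seen. Alternatives covered background correction, normalization, filter, probe choice, array side, arrays in the fit, replicate block, passage, variance model and leaving out each array. The result of 1 gene is not reported here.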

Additional observations from a re-analysis of the deposited data

Results flagged for a closer look

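For 17 named genes outside chromosomes 6 and 8, both Ts6 arrays lay on one side of both WT arrays and both Ts8 arrays on the other, while the difference between the lines passed the test in limma. Mean log2 distances from WT are given first for Ts6 and then for Ts8, followed by the tested difference, Ts6 minus Ts8.

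Among genes of testis and flagella, Dnajb13 lay at 1.58 in Ts6 and -1.20 in Ts8, a difference of 2.79 (adjusted p = 0.00045). Cox7b2 lay at 1.58 in Ts6 and -1.08 in Ts8, a difference of 2.66 (adjusted p = 0.00014). In these genes WT lay near the middle.

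Among genes lower in Ts6, Apcs lay at -2.72 in Ts6 and 0.42 in Ts8, a difference of -3.14. Cpb2 lay at -1.40 in Ts6 and 1.66 in Ts8, a difference of -3.06, with the larger distance in Ts8. Pdx1 lay at -2.13 in Ts6 and 0.58 in Ts8, a difference of -2.71.

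The Pramel genes shared this arrangement. Pramel16 differed by -2.82, Pramel31 by -2.68, Pramel17 by -2.60, Pramel20 by -2.59 and Pramel37 by -2.49. In all 5 the distance from WT was larger in Ts6, from -2.13 to -1.77, than in Ts8, from 0.62 to 0.79.

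The 2-cell-like genes did so too. Tcstv1 differed by -2.55, Zscan4a by -2.35 and Arg2 by -2.26. Zscan4a lay at -1.86 in Ts6 and 0.49 in Ts8.

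The imprinted genes Grb10, Cdkn1c and Meg3 differed by -2.33, -1.61 and -1.33. Cdkn1c lay at -0.94 in Ts6 and 0.67 in Ts8. Oas1a differed by 1.05 (adjusted p = 0.026), at 0.17 in Ts6 and -0.88 in Ts8.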

How the results depend on the processing

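Both chromosome shifts kept their direction under every alternative run, with ranges of 0.1990 to 0.2403 for chromosome 6 and -0.2647 to -0.2256 for chromosome 8. The counts of called genes moved more. With only the 4 arrays in the fit, 1348 genes were called outside both chromosomes, 128 on chromosome 6 and 116 on chromosome 8, and fewer arrays entered the estimate of the spread. Fewer genes were tested on the left side of the array, with 1388, 169 and 150 calls in that order, and on the right side, with 1845, 190 and 166 calls. Leaving out 1 array gave 855 to 3406 calls outside both chromosomes, 76 to 306 on chromosome 6 and 72 to 245 on chromosome 8. Of 120 called named genes, 60 lost their call without Ts6 replicate 1, 39 without Ts6 replicate 2, 19 without Ts8 replicate 1, 57 without Ts8 replicate 2, 47 with only the 4 arrays 23 without the filter on dim probes and 15 with slide 1 alone, while at most 9 did so under the other normalizations, the series table, the mean of all probes, passage, the variance model or the replicate block. Oog2 gave 0.0011 where only probes well above background on all 4 arrays were used, since another probe then stood for it. The leading lists kept the sign of their median, from -1.97 to -1.62 for the 2-cell-like genes and from 0.28 to 0.49 for the interferon genes, whereas 17 of 34 list medians changed sign under some alternative, the Hoxa, mesoderm and primed epiblast lists among them, and 7 did so under another scaling (ribosome, imprinted, chaperone, replication, lysosome, oxidative phosphorylation and primitive endoderm). Without Ts8 replicate 2 the medians came to 0.14 for naive pluripotency, 0.27 for trophectoderm, 0.28 for interferon, 0.29 for sterol synthesis and -0.25 for p53 genes, and the naive pluripotency median was 0.10 on the left side of the array and 0.62 on the right. The replicate numbers were shared by all groups but did not pair the samples, since deviations of same-numbered arrays correlated between -0.1 and 0.392 (0.082 for Ts6 with Ts8). With replicate number as a block, 3473 genes were called outside both chromosomes, 378 on chromosome 6 and 328 on chromosome 8. Position of a group on the slide and 2 arrays a line limit all of these values.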

Other observations

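Stretches outside chromosomes 6 and 8 leaned in either direction. Over all genes outside both chromosomes, 5.74% were higher in Ts6 and 6.91% were lower. Between 10 and 20 Mb of chromosome 5, none of 48 tested genes was higher in Ts6 and 16 were lower, with a median log2 difference of -0.41 and a lowest value of -2.92, and 12 of the 48 were lincRNAs. Between 50 and 60 Mb of chromosome 7, 31 of 214 genes were higher and 6 were lower, with a median of 0.10. These windows were picked after their values had been seen and have no test of their own.

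The Duxbl genes, relatives of Dux on chromosome 14, were lower in Ts6 as well. Duxbl1 had -3.41 and -3.42 in Ts6, against -1.18 and -1.46 in Ts8 and -1.82 and -1.70 in WT (log2 difference -2.09 ± 0.13, adjusted p = 0.00018 in limma). Duxbl2 differed by -1.81 ± 0.12 (adjusted p = 0.00021 in limma), and the probes of such similar copies may share signal.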
